A study of Mus musculus with 8 samples.

Results

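Of 116068 regions of open chromatin (peaks) counted in single nuclei of cultured mouse alveolar epithelium, 1991 were selected as peaks that are more open in type I-like nuclei than in type II-like and transitional nuclei. Nuclei were first sorted into 3 classes by their RNA. Each nucleus with at least 1000 RNA molecules (unique molecular identifiers, UMIs) was given a type I score, the summed UMIs of Ager, Hopx, Rtkn2, Clic5 and Lmo7 per 10000 UMIs. A type II score (Sftpb, Napsa, Abca3, Lamp3, Slc34a2) and a transitional score (Krt8, Krt18, Krt19, Cldn4, Sfn) were made in the same way. A class holds the nuclei in the highest 25% of 1 score and of no other, with fewer than 5 Sox9 UMIs and with the airway genes Scgb3a1 and Bpifa1 below 50 UMIs per 10000 together. A peak was a member if it had at least 40 counts in the type I class and a rate, in counts per 1000000 counts in peaks (CPM), at least 1.7 times the rate in each of the other classes. Of 71270 peaks with 40 counts in the type I class, 2.79% met the rule. By the same rule 4649 peaks were selective for the type II class and 9923 for the transitional class. The rates of the 3 classes chose the members, so those rates are given as a description.

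Type I pneumocytes are the thin, flat cells that cover most of the gas-exchange surface of the lung. They arise from type II pneumocytes, which make surfactant, and in injury and in culture they pass through a transitional state rich in keratins. In ATAC-seq a transposase cuts DNA where nucleosomes are absent. Open regions away from gene starts often act as enhancers and tend to be more specific to a cell type than promoters.

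The nuclei came from alveolarspheres, small three-dimensional cultures grown without serum or feeder cells from type II cells (ATII) of young and old mice. On day 9 they were infected with adeno-associated virus carrying Cre recombinase alone (AAV9_Cre) or Cre together with Sox9 (AAV9_Sox9Cre). They then spent 4 days in medium that drives differentiation to type I cells, and nuclei were taken from live cells sorted for the red reporter tdTomato. RNA and open chromatin were read from the same nuclei, and the labels list 2 samples each of Sox9-Cre RNA, Sox9-Cre ATAC, Cre RNA and Cre ATAC. All groups therefore share Cre, tdTomato and the differentiation medium, and what was sequenced is limited to tdTomato-positive cells that came through the sort. The counts are 1 pooled matrix of 7224 nuclei with 4 barcode prefixes, called libraries A to D here, that no label ties to a virus or an age. No Sox9-Cre against Cre or young against old comparison was made, the matrix counts as 1 sample, and no test or p-value is given. Intervals are 95% intervals, exact Poisson or Clopper-Pearson, and cover counting error only.

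The type I class held 1228 nuclei (296, 181, 460 and 291 in libraries A to D), the type II class 1715 and the transitional class 1167. Their summed ATAC counts were 12850074, 19224987 and 13206260, with medians per nucleus of 8448, 8846 and 10353. Median ATAC counts per type I nucleus ranged from 3619 in library B to 13182 in library D. Libraries shared 20 barcodes. The type I score had no gap at its threshold of 80.1 UMIs per 10000, and 149 type I class nuclei lay within 10% above it, so the class is a range of a score.

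The RNA of the type I class was set against markers that the score did not use. Of 37 further type I genes 20 were at least 1.5 times higher in it than in both other classes and 0 were lower by that factor, against 5.11% and 4.35% of 13516 genes tested, and their summed level was 233.7 UMIs per 10000 against 66.4 in the type II and 153.0 in the transitional class. The class is called type I on the list as a set, but it also held RNA of the other states. Sftpc, the type II surfactant gene, stood at 204.7 UMIs per 10000 in it, at 955.5 in the type II class and at 99.1 in the transitional class. Krt8, a transitional keratin, stood at 7.30, 3.08 and 36.9. Summed mesenchymal markers were at 0.0136 and endothelial and immune markers at 0.0780 UMIs per 10000 in the type I class, with Pdgfrb, Lum, Kdr and Lyve1 at 0. Airway secretory genes summed to 3.27, 2.81 and 4.63 in the 3 classes, and the part of any of these RNAs in the results below was not tested.

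Few of the members lie at gene starts, but those that do include listed starts of well-known type I genes. Windows of 4 genes are shown here because a selective peak covers the whole promoter window. The window is the RefSeq promoter (build GRCm38.p6, matched by gene symbol), of which the 250 bases before the start are printed 5′ to 3′ on the gene's strand. Such a listed start can lie inside the gene. The printed bases of Ager and of Itga3 do, within gene spans of chr17:34597460-34600937 and chr11:95044475-95076844. Capitals mark matches to a set of 13 short motifs on either strand. In the window of Ager, the gene of the receptor RAGE of type I cells, they mark an ETS match (GGAAGT). In the window of Cav1, which makes the caveolae of type I cells, they mark a KLF match (GGGCGGG, reverse strand). In the window of Itga3, an integrin chain that binds laminin, they mark a RUNX match (TGTGGTT). In the window of Sec14l3, a lipid-transfer protein, none of the motifs matched before the start.
Ager, chr17:34597600-34597849: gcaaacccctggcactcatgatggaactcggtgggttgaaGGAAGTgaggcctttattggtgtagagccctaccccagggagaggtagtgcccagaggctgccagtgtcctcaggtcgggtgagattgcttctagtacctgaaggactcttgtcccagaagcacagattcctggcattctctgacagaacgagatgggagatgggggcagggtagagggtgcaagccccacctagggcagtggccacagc
Cav1, chr6:17306085-17306334: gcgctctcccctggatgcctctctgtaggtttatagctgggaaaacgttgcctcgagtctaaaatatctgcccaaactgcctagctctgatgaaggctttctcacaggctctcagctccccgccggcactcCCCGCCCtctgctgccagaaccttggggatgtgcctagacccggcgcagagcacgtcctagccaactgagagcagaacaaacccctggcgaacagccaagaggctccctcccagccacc
Itga3, chr11:95069199-95069448: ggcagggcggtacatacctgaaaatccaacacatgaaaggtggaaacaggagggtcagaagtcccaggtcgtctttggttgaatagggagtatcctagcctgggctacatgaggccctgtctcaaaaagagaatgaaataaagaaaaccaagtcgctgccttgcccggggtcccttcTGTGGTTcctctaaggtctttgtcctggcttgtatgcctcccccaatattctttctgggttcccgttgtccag
Sec14l3, chr11:4064603-4064852: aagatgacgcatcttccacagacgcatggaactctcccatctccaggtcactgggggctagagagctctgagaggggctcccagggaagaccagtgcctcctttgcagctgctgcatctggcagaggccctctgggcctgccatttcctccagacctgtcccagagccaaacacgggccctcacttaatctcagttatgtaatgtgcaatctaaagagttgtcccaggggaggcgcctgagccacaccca
The peak over the Ager start (chr17:34597408-34598244) had 33.9 CPM in the type I class, 18.7 in the type II class and 17.6 in the transitional class. The peak over the Cav1 start (chr6:17305911-17306856) had 37.9, 20.0 and 19.8. For Itga3 (chr11:95069147-95070150) the rates were 16.3, 6.35 and 9.01, and for Sec14l3 (chr11:4064360-4065315) they were 17.5, 8.84 and 7.57.

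In all, 11 of 32851 promoter windows lay wholly within a member, and they belong to 9 genes. The other genes were Popdc2 and 4 predicted genes, Gm52705, Gm47708, Gm30786 and Gm33041, of which the last 2 have overlapping windows that share matches. The motifs were read on both strands over the whole window of 300 bases. For factors of the alveolar lineage their letters were CAAGTG in the case of NKX2-1, TTGCNNAA for the C/EBP family, TGTTTAC for forkhead FOXA proteins, AGATAA for zinc-finger GATA proteins, TTGGCA for the NFI family and CCATTGT for the SOX family. For factors of stress, growth and epithelial programs they were TGANTCA for AP-1 dimers, GGAATG for TEAD proteins, GGGCGGG for the KLF family, GGAAGT for the ETS family, AACCNGGTT for the grainyhead protein GRHL2 and TGTGGTT for the RUNX family, and CCACNAG stood for the insulator protein CTCF. Matches of different motifs were counted separately even where they overlapped. TEAD, GATA and NFI letters each occurred in 3 of the 11 windows, against 14.7%, 11.2% and 14.1% of all windows, but 2 of the 3 for GATA and for NFI are the overlapping windows of Gm33041. FOXA and SOX letters each occurred in 2, against 3.65% and 3.66% of all, both being the overlapping windows of Gm30786. AP-1 letters occurred in 1, in the Itga3 window after the start, against 7.81% of all windows, and the RUNX letters, also in the Itga3 window alone, in 5.27% of all. KLF letters occurred in 2 against 25.6% of all windows and 50.7% of those in a peak with 40 counts, and ETS letters in 2 against 23.8%. With 11 windows these are descriptions only, and the peaks away from starts were not read as sequence here.

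The members were mostly modest peaks. Their counts in the type I class had a median of 81, with the middle 50% of members between 57 and 124 and a range of 40 to 930, and 1265 had fewer than 100 counts. Median rates were 6.30 CPM in the type I class, 2.7 in the type II class and 2.65 in the transitional class. A median of 5.86% of type I nuclei had a count in a member, against 2.80% of type II and 2.83% of transitional nuclei, so a member was read in a small part of the nuclei of its own class. Member width was much like that of all peaks with 40 counts, with medians of 908 and 916 bp.

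Selectivity was a matter of degree, and no member was without counts in the other classes. The lowest member rates were 0.260 CPM in the type II and 0.227 CPM in the transitional class. Whether such low counts differ from background was not tested. Every member had at least 3 counts in each of the other classes. The ratio of the type I rate to the higher of the other rates had a median of 1.96 (middle 50% of members 1.81 to 2.24) and a highest value of 7.49, with 913 members at 2 or above and 97 at 3 or above. The other classes were nearly alike in these peaks. The transitional rate was higher than the type II rate in 996 of 1991 members, exceeded it 1.5 times or more in 218 and fell short of it by that factor in 243.

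The threshold cut through a continuous range: 451 members had ratios from 1.7 to 1.8, and 622 peaks with 40 counts lay from 1.6 to 1.7. Just inside were a peak nearest 4930432J09Rik (chr14:103945459-103946333, 50 counts, 3.89 CPM against 2.29 and 2.04), a peak over Ptpn9 (chr9:56999338-57000244, 7.86 against 2.76 and 4.62) and a peak over Kmt2e (chr5:23489031-23489924, 16.1 against 7.91 and 9.47). Just outside were peaks over Abl1 (chr2:31737389-31738277, 3.35 against 1.61 and 1.97), Cacna1c (chr6:118907610-118908314, 3.35 against 1.40 and 1.97) and Psd3 (chr8:67930637-67931581, 13.4 against 6.71 and 7.88). The peaks on either side of the threshold could not be told apart by their counting intervals.

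Among members with at least 100 counts, the largest ratio was that of a peak in Syn3 (chr10:86258772-86259703), the gene of a synapsin that also contains Timp3 within its span. Its rates in libraries A to D were 12.4, 11.3, 10.3 and 7.64 CPM in type I nuclei, 1.41, 5.14, 2.07 and 1.59 in type II nuclei, and 2.40, 0, 1.18 and 3.31 in transitional nuclei. The type I values lay above those of the other classes in each library, but the peak was picked for its ratio in these same counts. In sum the peak was 5.0 times (3.46 to 7.39) the type II rate and 4.66 times (3.08 to 7.29) the transitional rate. In the 99 nuclei rich in airway genes, which the rule did not compare, it had 12.1 CPM, against 9.88 in the type I class. Those nuclei held only 1073875 ATAC counts in all. The next by ratio was chr8:42162261-42163139, linked to no gene, with 8.95 CPM against 1.92 and 2.04. The third lay in Spock2 (chr10:60113879-60114812), a proteoglycan gene of the type I list, with 9.49 against 2.44 and 2.57. Others of this group included peaks over Zfp984, Vldlr with Gm35438, and Zfp346, and peaks nearest to Uchl1, D030068K23Rik and Nfat5. In the peak near D030068K23Rik (chr8:109271813-109272818) the transitional rate of 1.06 was below the type II rate of 2.60, while the type I rate was 9.18.

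The members with most counts were less selective. The highest, over Ndst1 (chr18:60729810-60730591), a heparan sulfate enzyme gene, had 930 counts and rates of 72.4, 38.9 and 39.8 CPM in the type I, type II and transitional classes. The next was a peak over Batf (chr12:85684308-85685202), an AP-1 family factor, with 46.5, 26.0 and 25.8, and then one over Xrcc3 and Zfyve21 (chr12:111815102-111815930) with 42.6, 24.0 and 23.4. A peak in Col4a3 (chr1:82603104-82604038), a basement membrane collagen of the alveolus, had 39.8, 22.1 and 21.7, and the Cav1 promoter peak was next. In Col4a3 the libraries ran from 37.9 to 43.6 in type I nuclei, from 19.5 to 24.5 in type II nuclei and from 17.5 to 29.3 in transitional nuclei. The same counts chose the peak, so these ranges are a description.

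Members were far from gene starts. The starts used are those of a RefSeq table that is not complete and holds none on chromosome 18, so distances are upper bounds and 76 members on that chromosome are not included. Of 1915 members 12 held a start (0.627%, 0.324 to 1.09), against 16.4% of 68913 peaks with 40 counts. Within 2000 bp of a start lay 83 members (4.33%, 3.47 to 5.34), against 24.6% of all peaks, 8.44% (7.64 to 9.30) of type II-selective and 7.28% (6.77 to 7.82) of transitional-selective peaks. Beyond 50 kb from any listed start lay 35.1% of members (33.0 to 37.3), against 19.9%, 29.2% and 28.8% in the same order. The median distance was 29795 bp for members, 13165 bp for all peaks, 23275 bp for type II-selective and 23158 bp for transitional-selective peaks. Selective peaks of all 3 kinds were thus distal. With 40 counts as the minimum, the type I-selective ones had the smallest share near starts, outside the counting interval of either other kind. At 80 counts their share was 5.77%, and the other kinds were not recomputed there. The kinds were not matched for rate. A gene with its flanking 2000 bp covered 64.6% of members (62.4 to 66.7) and 72.9% of all peaks.

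**Figure D1:**
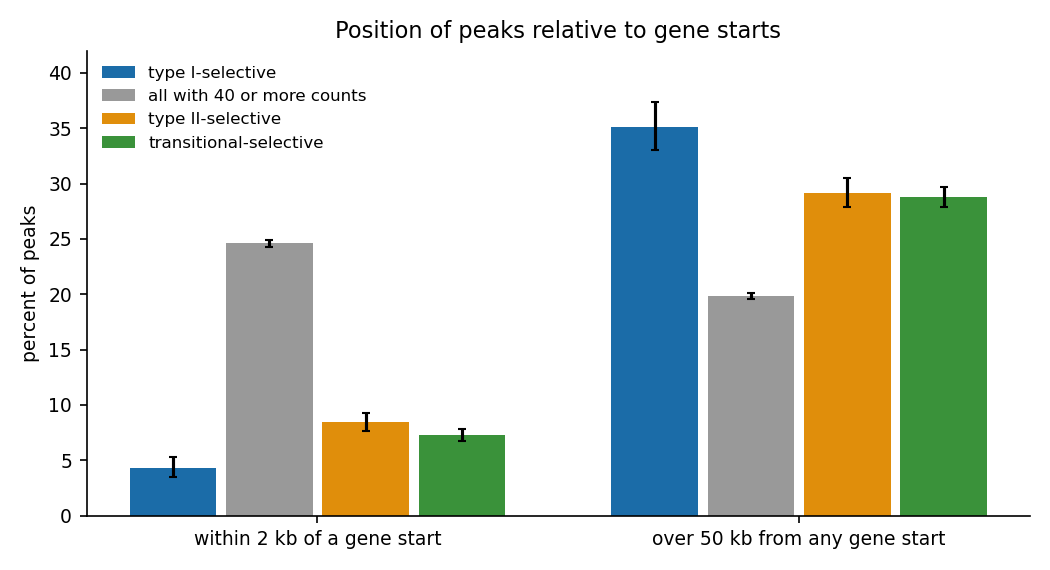
Shares of peaks (percent, bars from 0) that lie within 2000 bp of a listed gene start and beyond 50 kb of one, for type I-selective peaks, all peaks with 40 counts in the type I class, and type II- and transitional-selective peaks, with 95% Clopper-Pearson intervals. With 40 counts as the minimum, type I-selective peaks have the lowest share near starts (4.33%) and the highest far from them (35.1%).

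Members were spread over the genome and seldom grouped. They made up 2.17% (chromosome 11) to 3.43% (chromosome 16) of the peaks with 40 counts on each autosome and 3.39% on X, with 0 of 11 on Y. Joined across gaps of up to 50 kb, 1483 members stood alone, and 9 stretches held 4 or more. The one with most members lay in Rapgef4, the gene of an exchange factor for Rap that responds to cyclic AMP, where 7 of the 8 peaks with 40 counts in 56.3 kb were members (chr2:72128337-72184611). Summed over the 7, libraries A to D gave 63.6, 64.0, 61.6 and 59.8 CPM in type I nuclei, 22.2, 25.7, 26.3 and 25.5 in type II nuclei, and 34.7, 39.1, 29.1 and 23.5 in transitional nuclei. The type I libraries were alike and lay above every library of the other classes. These libraries chose the members and other stretches were not counted this way, so the values are a description.

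Next in number of members were stretches at Nedd9 and at 2310005E17Rik with Gm10320. At Nedd9, a scaffold protein of focal adhesions, 5 of 8 peaks were members (chr13:41437536-41495363, 63.0, 25.6 and 24.5 CPM in the type I, type II and transitional classes). At 2310005E17Rik and Gm10320 5 of 9 peaks were members (chr13:98368583-98498555, 40.8, 17.5 and 20.0). Stretches of 4 members lay at Trp53bp2 (4 of 6 peaks, chr1:182385245-182414599, 58.1, 20.3 and 21.5), at the integrin gene Itgb6 (4 of 14, chr2:60630729-60698824, 56.9, 25.2 and 28.7) and at Syn3 with Timp3 (4 of 17, chr10:86258772-86379445, 53.5, 23.7 and 19.5). The others lay at Galnt18 (4 of 7, chr7:111744630-111795727, 48.9, 24.1 and 17.6), Sh3rf3 (4 of 7, chr10:58807164-58843749, 16.9, 7.07 and 7.12) and Gm10556, where all 4 peaks were members (chr18:4783904-4825304, 36.8, 12.8 and 9.31). In each stretch the type I rate was the highest of the 3 classes in every library, but the same libraries chose the members.

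The sum over all members was alike in the 4 libraries. Members took 155.0, 155.1, 168.7 and 161.9 of every 10000 ATAC counts of type I nuclei in libraries A to D, 68.8, 67.3, 73.8 and 71.5 of type II nuclei and 72.0, 74.5, 74.6 and 68.8 of transitional nuclei. The type I values of all libraries lay above all values of the other classes. Peak by peak the depth was thinner, and 1338 of 1991 members had a type I rate above both others in every library. The same libraries chose the members, and this count was not made over all peaks, so it is a description.

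Since all libraries entered the choice, peaks were also chosen by the same rule without 1 library and read in that library. The classes themselves still rested on score thresholds set over all libraries. Without library A 1845 peaks were chosen, and 83.5% of them were more open in type I nuclei than in both other classes within library A, against 32.6% of all peaks with 40 counts in the other libraries. Without B 1930 were chosen and 66.9% were higher in B, against 31.9%. Without C 1513 were chosen and 93.6% were higher in C, against 34.5%, and without D 1438 were chosen and 94.4% were higher in D, against 34.6%. The share was lowest in library B, which had the fewest type I counts (1063326, against 4675914 in C).

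The chosen peaks were less selective in the library that was held out than in the libraries that chose them. Summed ratios of type I to type II nuclei in the libraries that chose the peaks ran from 2.25 to 2.28, and in the held-out libraries A to D they were 2.02 (1.98 to 2.06), 2.09 (2.03 to 2.15), 1.98 (1.95 to 2.00) and 2.06 (2.04 to 2.09). Against transitional nuclei they ran from 2.26 to 2.28 where chosen, and were 1.91 (1.87 to 1.95), 1.87 (1.82 to 1.92), 1.95 (1.93 to 1.98) and 2.10 (2.07 to 2.13) where held out. The type I class was thus higher in each library that had no part in the choice.

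**Figure D2:**
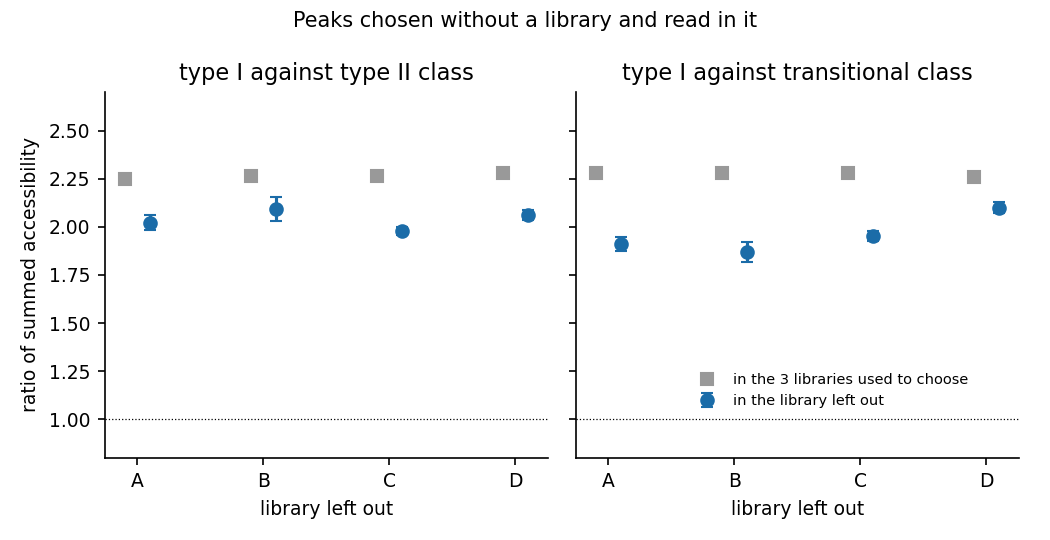
Summed ratio of the type I rate to the type II rate and to the transitional rate (vertical axis, ratio, dotted line at 1) for peaks chosen without the library on the horizontal axis, in the libraries that chose them and in the library held out, with 95% intervals. Held-out ratios lie between 1.87 and 2.10, below those of the libraries that chose the peaks and above 1 in all 4 libraries.

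The ATAC counts of nuclei in none of the classes had no part in the choice. These nuclei come from the same libraries, and the same scores placed them. Nuclei in the highest 25% of no score, without the Sox9-rich and airway-rich nuclei that the classes also leave out, were split into 4 bins by their type I score (521, 521, 521 and 522 nuclei, median scores 11.6, 30.3, 48.1 and 68.1 UMIs per 10000), all below the class threshold. Members took 68.2 (67.5 to 68.9), 88.3 (87.5 to 89.1), 105.2 (104.4 to 106.0) and 121.2 (120.3 to 122.1) of every 10000 ATAC counts in bins 1 to 4. The lowest bin lay below the type II (72.1) and transitional (71.9) classes and the highest lay between them and the type I class (162.4). The ratio of bin 4 to bin 1 was 1.78 (1.75 to 1.8) and was 1.45, 2.14, 1.8 and 1.82 within libraries A to D. Over the same bins the type II-selective peaks went the other way, at 0.761 (0.755 to 0.767) times bin 1, as did the transitional-selective ones, at 0.700 (0.696 to 0.704). Within library B the type II-selective peaks stood at 1.05. The RNA scores of those states did not fall in the same way. Over bins 1 to 4 the median type II score was 9.20, 16.4, 12.9 and 11.4. The median transitional score was 13.1, 14.2, 14.4 and 13.9. What else differed between the bins was not tested. Median UMIs per nucleus ran from 9000 in bin 1 to 9989 in bin 2 and stood at 9490 in bin 4, and median ATAC counts were 8882 in bin 1 and 8939.5 in bin 4.

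**Figure D3:**
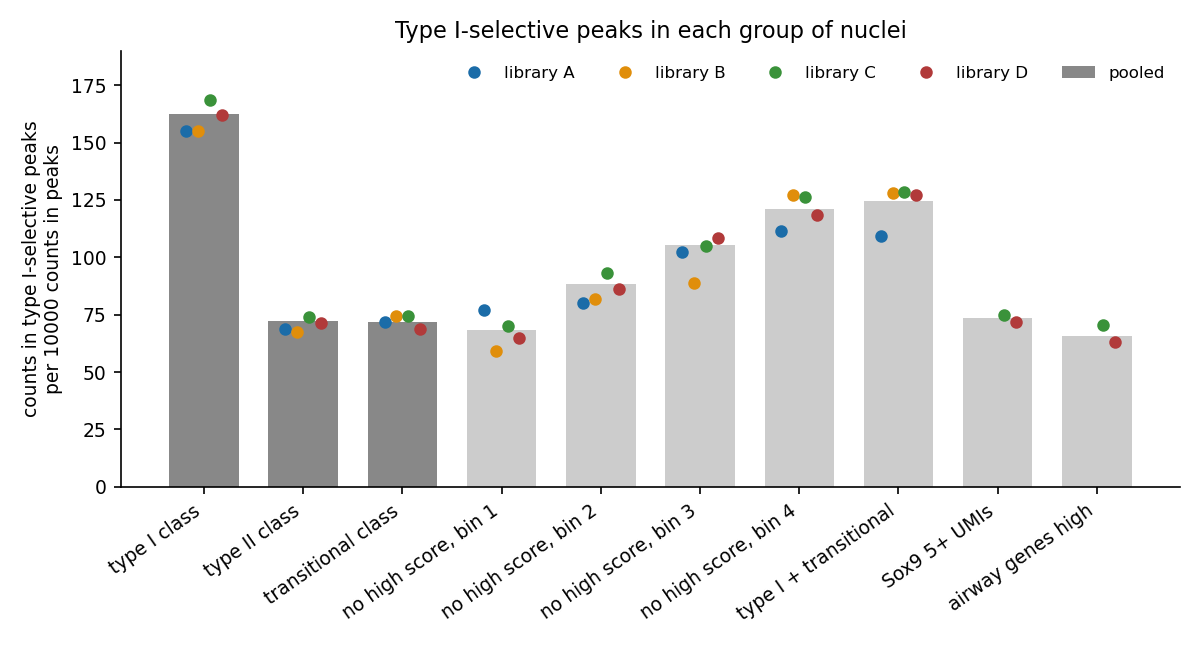
Counts in type I-selective peaks per 10000 ATAC counts (vertical axis, from 0) in the 3 classes that chose the peaks and in nuclei outside them, with the pooled value and the value of each library with at least 20 nuclei. Bins 1 to 4 of the type I score outside the classes climb from 68.2, below the type II class at 72.1, to 121.2, below the type I class at 162.4.

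The same held peak by peak. In bin 4 1343 of the 1991 members (67.5%) were at least 1.5 times as open as in bin 1, against 12.5% of all 71270 peaks with 40 counts, and 27 (1.36%) were lower by that factor, against 8.36%. The median ratio was 1.78 for members (middle 50% of members 1.37 to 2.41), 1.03 for all peaks, 0.758 for type II-selective and 0.689 for transitional-selective peaks. Of the 726 members with at least 100 counts in the type I class 75.5% reached 1.5, against 8.96% of all such peaks, and of the 1265 with fewer 62.8% did, against 16.0% of all peaks with 40 to 99 counts. Among single members the peak at chr17:45970586-45971434, linked to Vegfa only as the nearest gene, went from 14.8 CPM in bin 1 to 33.0 in bin 4. This was near the 34.6 of the type I class. The Slco3a1 peak at chr7:74436505-74437456 went from 12.1 to 25.8, and the Rapgef4 peak at chr2:72169203-72170107 from 7.13 to 20.4. These examples were picked with their values in view, as were the next, which did not follow. The Itga3 peak over the listed start inside the gene had 8.04 in bin 1 and 8.25 in bin 4, against 16.3 in the type I class. A Nedd9 peak (chr13:41318941-41319870) had 7.31 and 6.82.

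**Figure D4:**
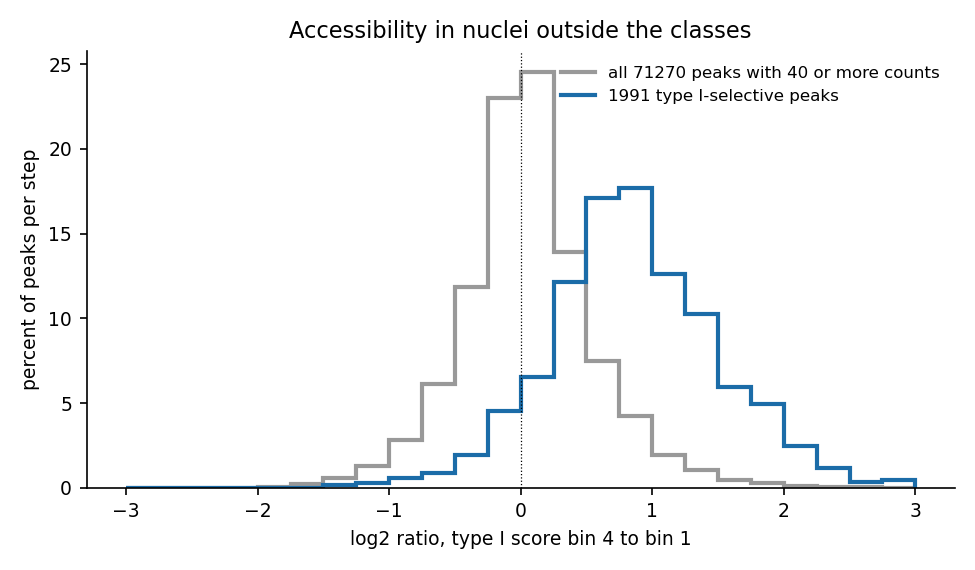
Distribution of the log2 ratio of bin 4 to bin 1 (horizontal axis) in nuclei outside the classes, as the percent of peaks per step, for type I-selective peaks and all peaks with 40 or more counts in the type I class. The type I-selective peaks have a median ratio of 1.78 and all peaks of 1.03, and the distributions overlap.

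Nuclei with mixed or other programs took intermediate or low values. The 526 nuclei in the highest 25% of both the type I and the transitional score stood at 124.4 (123.4 to 125.3) per 10000, which is 1.73 times the transitional class and 0.766 times the type I class. In them 1773 of 1991 members had at least 0.5 times the type I class rate, and 278 reached it. The same counts were not made over all peaks, so they are descriptions only. The 312 nuclei with 5 or more Sox9 UMIs, which lay in libraries C and D but for 1 nucleus in A, stood at 73.4 (72.6 to 74.1), 1.02 times the transitional class. In these nuclei 99 members reached the type I class rate, again without a count over all peaks. The 99 nuclei rich in airway genes, all from libraries C and D, stood at 65.8 (64.3 to 67.3). The 23 nuclei high in both the type I and the type II score stood at 129.0 (122.4 to 135.8), with a median of 2224 ATAC counts per nucleus. Doublets were not removed, and their part in the mixed nuclei was not tested.

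RNA of the same nuclei was set beside the peaks. A peak was linked to each gene it overlapped, with 2000 bp on either side, and otherwise to the nearest gene end within 100 kb. In this way 1284 members lay over a gene, 576 took the nearest gene and 131 took none, and 1563 genes had a member. RNA was called higher at 1.5 times both other classes and lower at the same factor below both, among genes with at least 30 UMIs in the classes and without the 15 score genes. Of 1207 genes with a member 222 were higher (18.4%), against 5.11% of 13516 genes, and 27 were lower (2.24%), against 4.35%. At a factor of 2 the shares higher were 10.3% and 2.19%. The same nuclei and classes stand behind both readouts, so the RNA is a description of these nuclei and not a separate experiment.

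The share of genes with higher RNA was larger the more members a gene had. It was 3.8% (3.47 to 4.16) with 0 members (12309 genes), 14.5% (12.4 to 16.9) with 1 (979), 31.0% (24.1 to 38.5) with 2 (168), 43.6% (30.3 to 57.7) with 3 or 4 (55) and 4 of 5 genes with more (28.4 to 99.5%). Genes with more members also had more linked peaks, with medians of 3, 7, 12, 17 and 26. Among genes with 10 or more linked peaks the shares were 8.64%, 16.6%, 33.6% and 36.2% for 0, 1, 2 and 3 or 4 members. Most genes with higher RNA had no member: 468 of 690, so that 32.2% had one, against 8.93% of all tested genes and 4.59% of genes with lower RNA.

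**Figure D5:**
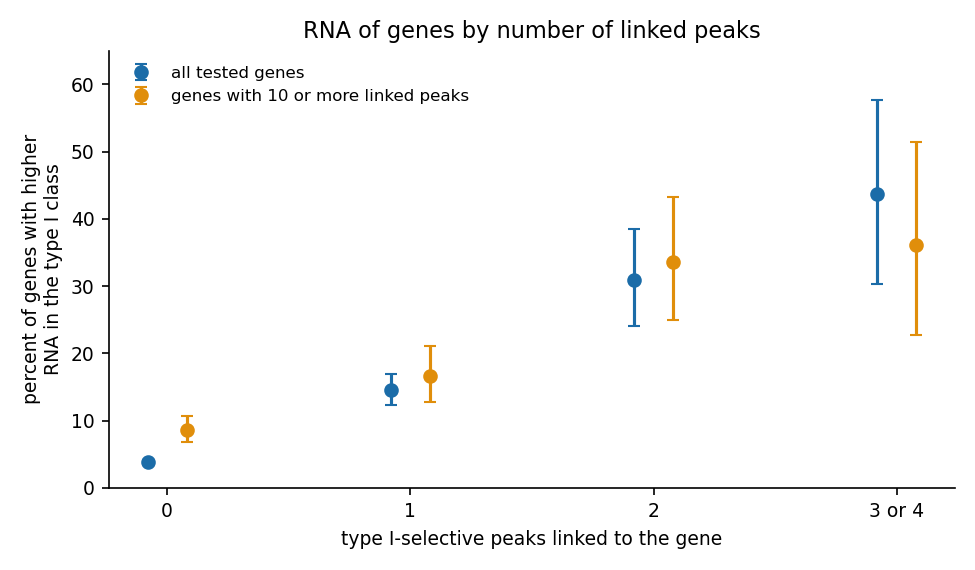
Percent of genes with RNA at least 1.5 times higher in the type I class than in both other classes (vertical axis, from 0) by the number of linked type I-selective peaks (horizontal axis), with 95% Clopper-Pearson intervals, for all tested genes and for genes with 10 or more linked peaks. The share climbs from 3.8% with 0 to 43.6% with 3 or 4, and the 5 genes with more members are not drawn.

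In all 16 genes had 4 or more members, and 10 of the 15 with enough RNA were higher in type I nuclei, against 5.11% of all genes tested. Among genes with 10 or more linked peaks and 0 members the share was 8.64%. The 10 described here are first by members and, among the 11 genes with 4, by counts in them, and 7 of the 10 had higher RNA. Rapgef4 had 8 members among 24 linked peaks, and its RNA, though scarce, was 0.163 UMIs per 10000 in the type I class, 0.0114 in the type II and 0.0288 in the transitional class. Slco3a1, an organic anion transporter, had 5 of 26, and its RNA in libraries A to D was 4.87, 4.55, 5.53 and 4.55 in type I nuclei, 0.89, 0.76, 0.75 and 0.69 in type II nuclei and 1.65, 1.7, 1.6 and 1.51 in transitional nuclei. No library of the other classes came near its type I values. Trp53bp2, which encodes an apoptosis-stimulating partner of p53, had 4 of 8, 3 of them linked as the nearest gene, and its RNA stood at 1.6, 0.516 and 0.513. Nedd9 (4 of 22) stood at 4.21, 1.09 and 1.34, Sh3rf3 (5 of 25), a ubiquitin ligase with SH3 domains, at 2.22, 0.555 and 0.517, and Galnt18 (4 of 15), an enzyme of mucin-type glycosylation, at 3.03, 1.07 and 0.241. Tns1 (5 of 35), a tensin of focal adhesions, stood at 1.7, 0.870 and 0.433.

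In the other 3 of these genes peaks and RNA did not run together. Syn3 had 7 members of 32 linked peaks, second only to Rapgef4, yet its RNA was 0.600, 0.524 and 0.335 UMIs per 10000. Timp3, the metalloproteinase inhibitor that lies within Syn3 and shares 1 of these members, was at 4.35, 1.25 and 2.62. Trappc9 (4 of 25), a subunit of a vesicle-tethering complex, was at 0.805, 0.765 and 0.562. Itgb6, the epithelial integrin chain that activates TGF-beta, had 4 members of 20, and its RNA was 3.70 in the type I class, 0.430 in the type II class and 4.62 in the transitional class. The 4 Itgb6 peaks together had 56.9, 25.2 and 28.7 CPM, so RNA was highest in the transitional class and openness of these peaks in the type I class.

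Type I genes themselves were among those with members. Of 315 peaks linked to the 37 type I identity genes 26 were members (8.25%), and of 80 linked to the 5 score genes 8 were (10.0%), against 2.51% over all links of genes and peaks. These lists and the score name the same cell type, so the counts describe the classes. Ager had members at both of its peaks. Its upstream peak (chr17:34595816-34596746) had 22.6, 25.4, 19.7 and 21.3 CPM in type I nuclei of libraries A to D, 4.71, 6.16, 7.61 and 5.77 in type II nuclei and 5.99, 11.7, 9.65 and 11.0 in transitional nuclei. In sum this peak was at 3.25 times (2.63 to 4.05) the type II and 2.15 times (1.74 to 2.67) the transitional rate. The rule chose it on these same counts, so its rates and ratios are a description. Both peaks also fall within the window of the neighbouring gene Pbx2. Ager is a score gene, so its RNA is a description of the class. It was 72.9, 79.8, 66.7 and 68.9 UMIs per 10000 in type I nuclei, and between 13.9 and 19.9 in every library of the other classes.

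Sec14l3 had 3 members among 6 linked peaks, side by side from chr11:4060746 to its promoter, with 67.2, 33.7 and 33.4 CPM together. Its RNA was 2.78, 0.253 and 0.296. Subunit genes of the epithelial sodium channel, Scnn1g and Scnn1b, lie close together on chromosome 7 and had 3 of 9 and 2 of 11. The Scnn1g peak at chr7:121741315-121742137 had 5.14, 1.04 and 0.38 CPM. Scnn1g RNA was 1.87, 0.174 and 0.574, and that of Scnn1b 1.52, 0.160 and 0.363. Cav1 had its promoter peak as the only member of 5, with RNA of 1.51, 0.0507 and 0.290. Spock2, with 1 member of 5, had little RNA, with 75 UMIs in the type I class. Clic5, an intracellular chloride channel protein, had 2 of 31, and the adhesion gene Lmo7 had 3 of 34.

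The other genes of the type I list with members varied in where the members lay. Limch1 had 3 of 22 and RNA of 12.7, 3.05 and 1.72, Akap5, a kinase anchor, had 1 of 4 and RNA of 10.5, 1.46 and 3.17, and Ahnak 1 of 18 and RNA of 8.07, 1.07 and 5.29. Phactr1 had 2 of 21, with RNA of 1.19, 0.192 and 0.0762. Pdpn, the podoplanin gene that marks type I cells, had 2 members as the nearest gene and 0 over it, with RNA of 0.195, 0.0817 and 0.0608. Igfbp2, a marker of mature type I cells, and Rtkn2 each had 1 as the nearest gene. Lpp (3 of 42), Mal2 (1 of 6) and Rab11fip1 (1 of 10) had members but RNA that did not reach the factor of 1.5 over both classes, at 5.56, 4.77 and 8.06 for Lpp.

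Other defining type I genes had no member over them. Hopx, a homeodomain cofactor, and Rtkn2 are score genes, so their RNA was fixed by the rule and is not set beside the peaks. Hopx had 5 peaks over its window with 51.8 CPM in the type I class, 46.4 in the type II class and 46.7 in the transitional class, ratios of 1.12 (1.01 to 1.23) and 1.11 (0.991 to 1.24). Rtkn2 had 9 peaks at 0.855 times (0.786 to 0.928) the type II and 0.952 times (0.868 to 1.04) the transitional rate. Aqp5, the water channel of type I cells, had 5 peaks at 1.20 (1.13 to 1.28) and 1.14 (1.07 to 1.22) and RNA of 16.998, 6.52 and 12.02, which did not reach 1.5 times the transitional class. Among listed type I genes the ratios summed over the gene window were largest against both classes for Ager, at 2.19 (1.95 to 2.46) and 2.01 (1.77 to 2.29). By the smaller of its ratios Sec14l3 was next, at 1.61 (1.42 to 1.81) and 1.75 (1.52 to 2.01).

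Outside the type I list, members were linked to genes of vessel and nerve guidance. Of 116 peaks linked to 13 semaphorin and VEGF pathway genes 10 were members (8.62%), linked to 5 genes. Sema3a had 2 over the gene, Vegfa and Plxna2 had 1 each, and Nrp1 and Sema3e had 0. The rest were linked as the nearest gene. Of the 13 genes 4 had higher RNA and 1 lower, against 5.11% and 4.35% of all genes tested. The share of members over all links was 2.51%. Vegfa, the growth factor that alveolar epithelium gives to capillaries, had 2 of 16. The larger (chr17:45970586-45971434) had 34.6, 14.7 and 16.2 CPM in the type I, type II and transitional classes. It was linked to Vegfa as the nearest gene, 45559 bp away, and a listed gene start lay closer, at 27291 bp. Vegfa RNA in libraries A to D was 3.36, 3.24, 3.05 and 3.14 in type I nuclei, 1.20, 1.31, 1.03 and 1.24 in type II nuclei and 1.53, 1.54, 1.5 and 1.29 in transitional nuclei. Sema3a, a secreted guidance cue, had 2 of 11 (17.4, 6.66 and 6.97 CPM at chr5:13353265-13354153) and RNA of 4.44, 0.560 and 0.355. Plxna2, a semaphorin receptor, had 2 of 14 and RNA that was highest in the type II class, at 0.780, 1.38 and 0.428. Nrp1, the co-receptor of both families, had 3 of 18 as the nearest gene, with RNA of 1.59 in the type I class, 6.55 in the type II class and 0.714 in the transitional class, highest in type II nuclei of all 4 libraries.

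Matrix and adhesion genes followed. Of 146 peaks linked to 18 basement membrane genes 7 were members (4.79%), and 7 of the 17 genes tested had higher RNA and 1 lower, against the same 5.11% and 4.35%. Col4a3 had 2 of 8 and RNA of 7.35, 6.43, 8.13 and 7.47 in type I nuclei of libraries A to D, against 0.91 to 1.51 in type II and 1.85 to 1.96 in transitional nuclei. Lama3, a laminin chain, had 2 of 10 (RNA 1.93, 0.299 and 0.820) and Npnt, which encodes nephronectin, 1 of 6 (2.47, 1.08 and 0.574). For 19 integrin and adhesion genes 15 of 202 linked peaks were members (7.43%), from Tns1, Itgb6, Tln2 (3 of 20), Itga3 (2 of 9) and Itgb5, while 2 of 18 tested genes had higher RNA and 0 lower, again beside 5.11% and 4.35%. Itga3 RNA was 1.48, 0.459 and 1.30, higher than in type II nuclei and close to transitional nuclei.

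Transcription factors and their targets held members at about the rate of all genes. Of 449 peaks linked to 38 lung transcription factors 13 were members (2.90%), and of 208 linked to 21 YAP and TEAD genes 6 were (2.88%). Tead1, a DNA-binding partner of YAP and in both lists, had 4 of 34, with 17.04, 4.94 and 9.16 CPM at chr7:112729896-112730906 and RNA of 3.09, 1.18 and 1.6. Rarb, a retinoic acid receptor, had 3 of 37 and RNA of 2.33, 0.511 and 0.898. Foxp2 had 2 of 12 and RNA that was as high in type II nuclei, at 6.62, 7.48 and 2.36. Ptpn14, a YAP inhibitor, had 1 of 15 and RNA of 1.33, 0.385 and 1.33, and Fjx1 1 of 4, with 46 UMIs in the type I class. Of 66 peaks linked to 12 AP-1 genes 1 was a member, the Batf peak, whose gene had RNA of 0.129, 0.0236 and 0.0890. TGF-beta and BMP genes had 2 of 170 (Bmpr1b and Tgfb2) and actin cytoskeleton genes 4 of 246. In the latter Arhgef26, a guanine nucleotide exchange factor, had 12.8, 3.8 and 4.77 CPM and RNA of 3.71, 0.920 and 1.17, while Tpm2, a tropomyosin, had a member and RNA that was highest in the transitional class, at 0.299, 0.0433 and 2.97.

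Genes of the other states and cell types are read against the 2.51% of members over all links. Of 142 peaks linked to 24 type II identity genes 1 was (0.704%), nearest to Slc39a8, and of 30 linked to the type II score genes 1 was (3.33%), nearest to Napsa. Napsa, a surfactant-processing protease, had RNA of 5.45 in the type I class, 23.2 in the type II class and 2.19 in the transitional class, while the peak (chr7:44568519-44569450) had 7.004, 3.85 and 1.97 CPM. Transitional identity genes had 5 of 118 (4.24%), of which 4 were those of Itgb6 and 1 lay in Tnip3 (chr6:65595200-65596107), with 27.1, 9.99 and 12.3 CPM and RNA of 0.363, 0.0590 and 2.55. Ion and water transport genes had 8 of 156 (5.13%), of which Scnn1g and Scnn1b held 5. Ciliated genes had 1 of 26 (3.85%), in Dnah9, and airway secretory, mesenchymal, and endothelial and immune genes had 0 of 31, 0 of 23 and 0 of 20.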

How the data were processed

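Gene expression and open chromatin were read together in nuclei of cultured mouse alveolar cells (8 samples, 2 per group and assay). The authors deposited raw counts, as 1 pooled matrix of UMI counts per gene (32285 genes) and 1 of ATAC counts per peak (116068 peaks). The tools named in the submitters' processing notes are Signac 1.10.0, Seurat 4.3.0 and Cell Ranger 6.0.1, and the genome build is written there as mm10 and as GRCm38. Details of peak calling and of the filter on nuclei were not given in the sources used here. Barcode prefixes match no sample label, so the planned edgeR test of Sox9-Cre against Cre was not run.

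Nuclei with at least 1000 UMIs (7168 of 7224) were scored. Scores, classes, rates and links were computed from the deposited counts as the text defines them, in Python 3.11.15 with numpy 2.4.6, scipy 1.17.1, pandas 2.3.3 and matplotlib 3.10.9. The 3 classes held 12850074 to 19224987 ATAC counts, and a member's median of 81 counts limits the precision of single peaks. Rates divide a class's count by its total count in peaks, so deeper nuclei weigh more, and doublets were not removed. The selection of peaks was checked on simulated counts in which some peaks were raised in the type I class. Scores, classes, links, RNA calls and distances were not simulated. Gene ends and starts came from RefSeq tables (GRCm38.p6). A position was found for 26296 genes and a promoter window for 20267. Starts on chromosome 18 and sequence of peaks away from starts were not used here.

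The text names the 10 members with the largest ratio and at least 100 counts, the 5 with most counts, 3 peaks on each side of the ratio of 1.7, the 10 genes with most members, type I list genes with a member, and up to 4 such genes of every other list. Hopx, Aqp5, Itgb5, Slc39a8 and the genes of the marker check were named beside these. Some named items are left out of the text. The members and the gene lists were chosen with earlier results of these data known. Alternatives changed the UMI minimum, a minimum of ATAC counts, the score threshold, 0 or 1 counting, the totals, the libraries, Sox9-rich nuclei, the count minimum, the ratios and the link.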

Additional observations from a re-analysis of the deposited data

How the results depend on the processing

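Alternatives were run for the number of members (1991), the median ratio outside the classes (1.78), the linked genes with higher RNA (222) and the share near starts (4.33%), and the median ratio was above 1 in every one. A minimum of 80 counts gave 1012 members, a ratio of 1.5 gave 3428 and a ratio of 2 gave 913. The median ratio outside the classes was 1.84 with the classes cut at the highest 20% of each score, 1.68 at the highest 33.3%, 1.82 with each peak counted as 0 or 1, 1.90 with Sox9-rich nuclei kept, 1.73 with libraries weighted equally, 1.82 at 80 counts, 1.67 at a ratio of 1.5 and 1.96 at a ratio of 2. Without library A it was 1.83, without C 1.88 and without D 1.74. Genes with higher RNA numbered 130 at a ratio of 2 and 124 at an RNA ratio of 2. The share near starts was 5.77% at 80 counts. The peaks chosen changed more than these sums: without library C there were 1385 members, 986 of them shared with the 1991, and without D 1355, with 1062 shared. The cause was not tested. No paired analysis was possible because no replicate number can be tied to a library, though the text gives values within single libraries. At a median of 81 counts per member most single peaks have wide counting intervals, and the spread between libraries cannot be split into virus, age and replicate.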
